A study of Arabidopsis thaliana with 4 samples.

Results

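MYB factors are DNA-binding proteins named after a helix-turn-helix repeat first described in an oncogene. In plants the family is large. Its R2R3 members, which carry a pair of such repeats, control phenylpropanoid and glucosinolate synthesis, epidermal cell fate and stress responses, and its single-repeat members include regulators of patterning, of the circadian clock and of cold responses. In seeds, MYB factors are known for the pigment and mucilage of the seed coat and for the gibberellin response of the aleurone layer.

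The gene set was taken by symbol: every probe set that the platform annotation pairs with exactly 1 gene whose symbol begins with MYB, or ATMYB, followed by a number or by a letter and a number. Of 13513 single-gene probe sets among 22746 non-control probe sets, 1 met this rule, 267077_at, annotated as MYBC1 (locus AT2G40970). The RefSeq table of assembly TAIR10.1 holds 124 genes whose symbols fit the same pattern. The other 123 had no single-gene probe set in the annotation used here and were not analysed here, so the values below describe 1 gene and not the MYB family. That annotation listed no gene for 8730 non-control probe sets, so a gene without a labelled probe set may still be on the array. No probe set shared by several genes carried a MYB symbol (0 of 503). MYBC1 encodes a single-repeat MYB protein that has been reported as a negative regulator of freezing tolerance in Arabidopsis. It is therefore not an R2R3 factor, and the label of a MYB family rests here on a gene from outside that main class.

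The study compared Ler-0 seeds (stock NW20) of Arabidopsis thaliana kept for 96 h in darkness at 4 °C with seeds kept for the same time in darkness at 22 °C. Each temperature has 2 samples of total RNA, called replicates A and B after their titles, on Affymetrix arrays that gave a MAS5 signal per probe set. All 4 samples share genotype, darkness and duration, and their labelled stage is dry seeds, beside the incubation given as treatment. Nothing in the labels says that A and B came from separate seed lots, and a p-value here reflects only how these 4 samples vary, possibly for technical reasons.

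The replicates agreed less well at 22 °C than at 4 °C. Over the 15847 probe sets tested, the log2 signals of the pair correlated with r = 0.937 at 4 °C and r = 0.778 at 22 °C, as a description across probe sets. On array 22 °C B 1139 probe sets reached a scaled signal of 64 that they reached on no other array. The counts were 299 for 4 °C A, 360 for 4 °C B and 450 for 22 °C A. Its median scaled signal was also the highest, 203.7 against 156.7 for 22 °C A, 135.5 for 4 °C A and 139.7 for 4 °C B. A fixed level is therefore not equally strict on each array, and the counts do not allow for this. Signals are given below after each array was brought to a 2% trimmed mean of 500, and 64 is the level used as background threshold, since detection calls were not used here. The number of arrays, 2 at each temperature, limits the precision.

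The comparison asks whether chilling in the dark, as used to release seed dormancy, changed the MYBC1 transcript relative to warm incubation. MYBC1 was near the bottom of the signal range on both 4 °C arrays and on array A at 22 °C, and well above the threshold on array B at 22 °C alone. Its scaled signal was 3.61 on array A and 5.15 on array B at 4 °C, against 5.47 on array A and 625.3 on array B at 22 °C. Thus 3 of the 4 arrays held similar low values and 1 warm array a high one. On the deposited scale the values were 0.721 and 1.03 at 4 °C, against 1.09 and 125.1 at 22 °C.

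Set against the other probe sets of the same array, 3.71% of probe sets had a lower signal than MYBC1 on 4 °C A, 6.31% on 4 °C B and 5.85% on 22 °C A, whereas 75.3% had a lower one on 22 °C B. Its mean over the 4 arrays, 159.9, passed the threshold of 64, so 1 of 1 MYB gene counted as above background. It passed through array 22 °C B alone and was above background on 1 of the 4 arrays. The signal on that array was 9.77 times the threshold, and the 3 other signals lay below it.

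**Figure D1:**
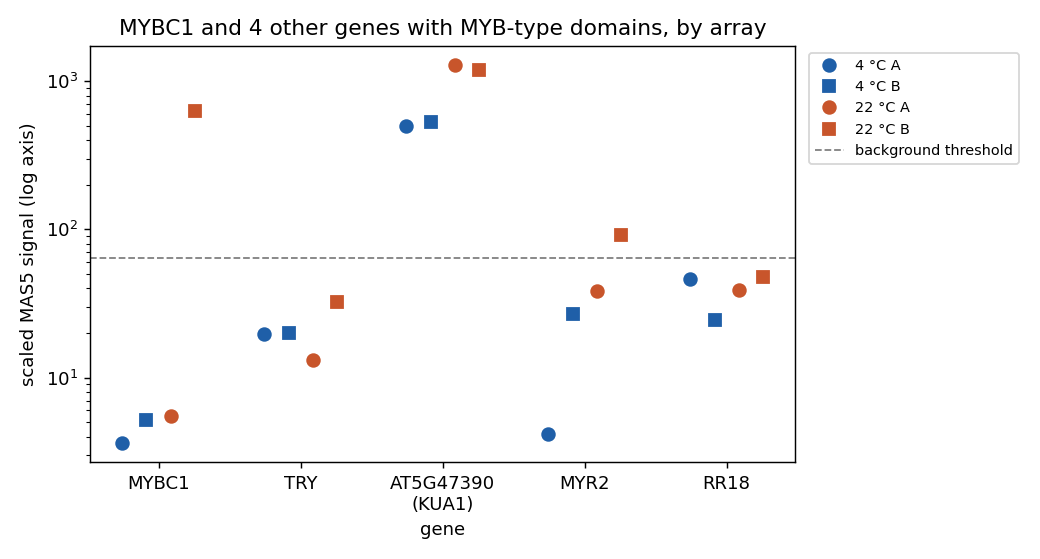
Scaled MAS5 signal on a log axis for MYBC1 and 4 other genes with MYB-type DNA-binding domains, with 4 °C arrays in blue, 22 °C arrays in orange, circles for replicate A and squares for replicate B. MYBC1 lies at 3.61 to 5.47 on 3 arrays and at 625.3 on 22 °C B, while AT5G47390 (KUA1) is above the dashed threshold of 64 on every array.

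MYBC1 averaged 4.38 ± 1.09 at 4 °C and 315.4 ± 438 at 22 °C (SD, n = 2 each), so the SD at 22 °C was larger than the mean. In the limma test on log2(signal + 32) its log2 fold change, 4 °C minus 22 °C, was -2.11 ± 1.20 (SE), with a 95% interval of -4.90 to 0.685, and it did not pass (unadjusted p = 0.119, Benjamini-Hochberg adjusted p = 0.32). Hence 0 of 1 MYB gene was called, also at an unadjusted p of 0.05, against 5.05% of all probe sets tested at the adjusted threshold and 25.6% at the unadjusted one. Nothing about MYBC1 is read from these shares, because a gene that passes the filter through 1 of 2 warm arrays has a wide spread by that fact. The interval includes no difference and also a fall of 4.90 on the log2 scale, so the test leaves the size of any temperature difference in MYBC1 undetermined.

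By rank, both 4 °C signals lay below both 22 °C signals, as they did at 31.4% of the probe sets tested. For MYBC1 this ordering rests on 5.15 at 4 °C B against 5.47 at 22 °C A, both below the threshold. The size of the fold change depended on the pseudocount, at -3.76 with 0, -2.11 with 32 and -1.41 with 100. It depended also on the warm array used, as given below. The median log2 fold change over all probe sets tested was -0.125.

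The difference between the 22 °C replicates of MYBC1, array B minus array A, was 4.13 on the log2(signal + 32) scale. With all other arrays similarly low, the fold change between temperatures is necessarily smaller than this difference. A larger absolute difference was found for 19 of 15847 probe sets, 0.12%, and the median was 0.669. At 4 °C the replicates differed by 0.0611, and 8.55% of probe sets had a smaller absolute difference, with a median of 0.391. MYBC1 entered the tested set through 22 °C B alone, so a large difference within the warm pair was fixed by the filter. Its rank there is a description and not a result. At signals as low as those at 4 °C the pseudocount of 32 compresses differences, so the close values there do not measure precision.

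**Figure D2:**
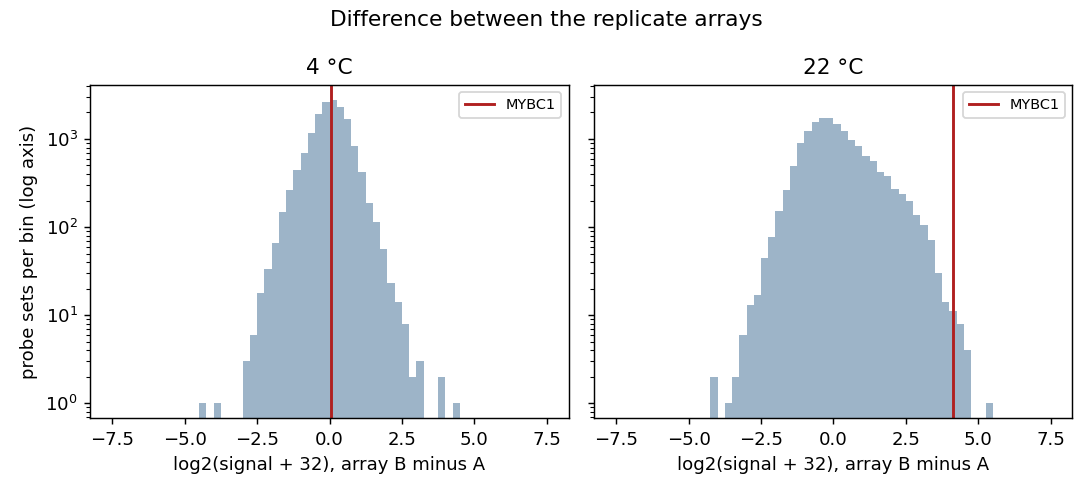
Histograms of the difference in log2(signal + 32) between replicate arrays, B minus A, over the 15847 probe sets tested, at 4 °C (left) and 22 °C (right), with counts per bin on a log axis. The red line marks MYBC1, at 0.0611 in the middle of the 4 °C distribution and at 4.13 in the far upper tail of the 22 °C one.

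Among the 1139 probe sets at or above 64 on 22 °C B only, 275 had a 4-array mean that passed the filter, and MYBC1 was one of them. Of these, 24, MYBC1 included, had a signal on 22 °C B of at least 625.3. The same pattern on another array was rarer among the probe sets tested: 7 for 4 °C A, 16 for 4 °C B and 34 for 22 °C A, of which none had a signal as high as that of MYBC1. These counts were made after the MYBC1 values had been seen, and they do not allow for the higher median signal of 22 °C B. The cause of the single high array, technical or biological, was not tested. For any transcript in whole seeds, fewer cells expressing a gene and less transcript per cell cannot be told apart.

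The value for MYBC1 depended on which warm array was used. Without 22 °C B its log2 fold change was -0.0431, and its 3 remaining signals were all below the threshold. Without 22 °C A it was -4.18. In both cases the lone warm array was assumed to vary like the 4 °C pair, whose difference the pseudocount compresses. MYBC1 passed the filter through 22 °C B alone, so a large value with 22 °C B as the lone warm array was fixed in advance. Nothing about temperature is read from that fit. Without 4 °C A or 4 °C B the log2 fold change was -2.08 and -2.14.

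**Figure D3:**
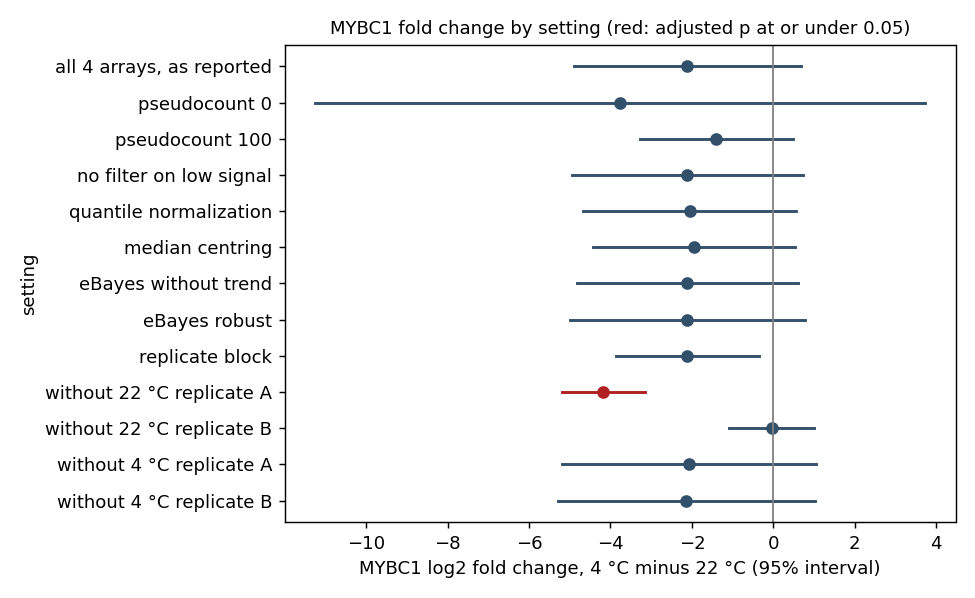
MYBC1 log2 fold change, 4 °C minus 22 °C, as points with 95% intervals from limma, under all 4 arrays as reported and 12 alternative settings, with a grey line at no difference. The value is -4.18 without 22 °C replicate A and -0.0431 without 22 °C replicate B. Red marks a call, made only without 22 °C replicate A, where the filter had fixed a large value in advance.

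For comparison, 4 genes with a MYB-type domain whose symbols lie outside the rule were taken from a list of loci. Of these, TRY is also in a list of partner genes described further below. AT5G47390, listed in RefSeq with the synonyms KUA1 and MYBH, encodes a single-repeat MYB factor of cell expansion and hypocotyl growth. Its signals were 499.6 and 534.5 on arrays A and B at 4 °C, against 1290 and 1197 at 22 °C. All 4 values lay above the threshold. Both 4 °C signals lay below both 22 °C signals, as they did at 31.4% of all probe sets tested. The replicates of AT5G47390 differed by 0.0916 at 4 °C and -0.105 at 22 °C on the log2 scale, B minus A. Its log2 fold change was -1.22 ± 0.446 (SE; 95% interval -2.25 to -0.177), with a limma adjusted p = 0.142, so it did not pass although its unadjusted p was 0.0273. Unlike that of MYBC1, its log2 fold change kept nearly the same value whichever array was left out, from -1.27 to -1.16, and its adjusted p then ranged from 0.0897 to 0.612. The difference between both genes was not tested.

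The other 3 were below background by their 4-array means and were not tested. TRY (TRIPTYCHON), a single-repeat MYB protein that inhibits trichome formation, had 19.8 and 19.9 at 4 °C, against 13.1 and 32.6 at 22 °C. RR18, a B-type response regulator of cytokinin signalling with a MYB-like domain, had 46.2 and 24.5 at 4 °C, against 39.2 and 48.0 at 22 °C. The groups overlapped for both of these genes. MYR2, a MYB-related factor, had 4.18 and 27.0 at 4 °C, against 38.6 and 91.6 at 22 °C. MYR2 also reached the threshold on array 22 °C B alone, but its warm arrays lay much closer together than the 5.47 and 625.3 of MYBC1.

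MYB factors act with partner proteins and on target pathways, and 9 lists of such genes were examined by locus. A single-gene probe set was found for 14 of their 112 loci, and 8 of the 14 were above background. By limma 0 of these 8 were called higher and 0 lower at 4 °C, against 5.05% of all probe sets tested called in either direction. An unadjusted p under 0.05 was found for 3 of 8, against 25.6% of all probe sets tested. The median log2 fold change of the 8 was -0.145, close to that of all probe sets. Their values ran from -1.61 for HCT to 1.78 for CP1. The lists of G2/M genes, the CBF cold pathway and abscisic acid signalling had no single-gene probe set in the annotation used here. The 1 gene for waxes and suberin with such a probe set was below background.

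ATMYC1, a basic helix-loop-helix protein that binds MYB factors, had 101.4 and 142.5 at 4 °C, against 101.2 and 251.9 at 22 °C (adjusted p = 0.73 by limma for a log2 fold change of -0.35, which was 0.195 without 22 °C B). HCT, an acyltransferase of lignin synthesis, had 690.4 and 792.8 at 4 °C, against 2494 and 2161 at 22 °C, a difference of -1.61 on the log2 scale (adjusted p = 0.079 by limma, and 0.038 with the replicate letter as a block). Leaving out 4 °C A or B raised its adjusted p to 0.47 or 0.416, and leaving out 22 °C A or B lowered it to 0.0462 or 0.0292. Of the 2 glucosinolate genes above background, BCAT4 had 94.6 and 52.2 at 4 °C, against 70.6 and 48.9 at 22 °C. Its difference was 0.181 (adjusted p = 0.873 by limma). UGT74B1, a glucosyltransferase of glucosinolate synthesis, had 123.9 and 317.2 at 4 °C, against 451.7 and 827.3 at 22 °C. This was a difference of -1.47 (limma adjusted p = 0.154, and 0.0401 with the block). Its difference was -0.885 without 4 °C A (adjusted p = 0.744), -2.05 without 4 °C B (0.34), -1.88 without 22 °C A (0.0171) and -1.05 without 22 °C B (0.193). For HCT and UGT74B1 both 4 °C signals lay below both 22 °C signals, as they did at 31.4% of all probe sets tested. Neither gene passed in the fit of all 4 arrays without the block.

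Of the 2 aleurone response genes above background, AMY1 had 37.3 and 68.5 at 4 °C, against 84.1 and 69.8 at 22 °C. Its mean over the 4 arrays, 64.9, was close to the threshold. The AMY1 difference was -0.381 on the log2 scale (adjusted p = 0.704 by limma). CP1, a cysteine protease gene, went the other way, with 15113 and 14863 at 4 °C, against 2456 and 7672 at 22 °C. Its difference, the larger of the 2, was 1.78 on the log2 scale (adjusted p = 0.108 by limma, and 0.0172 with the block). It was 1.77 without 4 °C A (adjusted p = 0.429), 1.79 without 4 °C B (0.425), 0.963 without 22 °C A (0.136) and 2.59 without 22 °C B (0.00266). Among 6 flavonoid genes with a probe set, 2 were above background, and the one with the larger log2 fold change, the flavonol glucosyltransferase gene UGT78D2, had 126.9 and 174.4 at 4 °C, against 151.4 and 102.0 at 22 °C (0.208, adjusted p = 0.828). The anthocyanin glycosyltransferase gene UF3GT was not tested because its mean was below the threshold. It had 92.6 and 81.4 at 4 °C, against 28.8 and 32.7 at 22 °C. UF3GT was named outside the naming rule. The share of all probe sets with both 4 °C signals higher was not counted, so nothing is read from this order.

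The labelled tissue could be checked with 1 of 13 seed markers, the oil body gene OLEO3, which had 348.2 and 658.2 at 4 °C, against 1305 and 1838 at 22 °C. The OLEO3 difference of -1.63 on the log2 scale did not pass (limma adjusted p = 0.103), but did with the block (0.0346). With 1 array left out its adjusted p ran between 0.0205, without 22 °C A, and 0.606, without 4 °C A. Of 4 green tissue markers 1 had a single-gene probe set, the antenna gene LHCB4.1. Its signals were 289.8 and 214.9 at 4 °C, against 3717 and 3835 at 22 °C. It fell by 3.76 on the log2 scale (limma adjusted p = 0.0279), a call lost with no filter (0.0551) and when 4 °C A (0.15) or 4 °C B (0.167) was left out. Neither had the pattern of MYBC1, since 22 °C B differed from 22 °C A by 0.485 for OLEO3 and 0.0447 for LHCB4.1 on the log2 scale. Their part in the MYBC1 result was not tested.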

How the data were processed

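The authors deposited linear MAS5 signal intensity values for 22810 probe sets on 4 arrays; MAS5 is named in the submitters' processing notes, its version and background handling, and any genome build, being not given in the sources used here. By the values, every array had been brought to a 2% trimmed mean of 100. Here arrays were scaled to 500, 64 control probe sets left out, and 15847 probe sets with a mean of at least 64 kept. limma 3.58.1 in R 4.3.3 (lmFit, eBayes with trend) tested log2(signal + 32), 4 °C minus 22 °C, over all kept probe sets, with Benjamini-Hochberg adjustment at 0.05. The fit was also run on simulated data with the same spread at both temperatures and large planted differences. The real warm pair agreed less well than the cold pair, so that run does not measure how the test performs here. Genes came from the platform annotation and RefSeq's TAIR10.1 table, which matched 13436 of 13513 single-gene probe sets. No coordinates or sequences are given, because the files name no build and no sequence table was used here.

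All called MYB genes, those with clear or extreme values, and from each list the called genes or else the one with the largest absolute fold change were to be named. TRY, RR18, MYR2, AT5G47390, UF3GT, AMY1 and BCAT4 were added later. Members and lists were chosen with earlier results of these data known.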

Additional observations from a re-analysis of the deposited data

How the results depend on the processing

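MYBC1 passed in 1 of the 12 alternatives that gave it a value. With all 4 arrays its log2 fold change ran from -3.76 with a pseudocount of 0 (signals floored at 1) to -1.41 with a pseudocount of 100, and its adjusted p from 0.0912 with the replicate block to 0.512. No label ties the arrays of a letter together, and replicate differences at both temperatures correlated across probe sets with r = 0.209. With an array left out the MYBC1 log2 fold change ranged from -4.18 to -0.0431. MYBC1 counted as above background at thresholds of 32 and 100 and after quantile normalization. It did not (0 of 1) at a threshold of 200 or when all 4 arrays had to reach 64, and a filter at 200 therefore gave it no test. Its mean over all probe sets and its RefSeq symbol changed nothing, as it has 1 probe set and 1 symbol, and a median over the MYB genes is its own value.

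Against 801 called probe sets, a pseudocount of 100 gave 226, no filter gave 2, and the count was 1266 with a filter at 200, 2879 with the replicate block and 1 to 4142 with an array left out. The cause of these changes was not tested. In the leave-out fits the log2 fold change of ATMYC1 ranged from -0.896 to 0.195 and that of UGT78D2 from -0.0182 to 0.435. HCT, UGT74B1, CP1 and OLEO3 passed with the replicate block (adjusted p = 0.038, 0.0401, 0.0172 and 0.0346). With 2 arrays per temperature, a single deviating array cannot be tested.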
